A study of Mus musculus with 12 samples.

Results

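The proteasome genes described here were the 3 immunoproteasome catalytic subunits Psmb8, Psmb9 and Psmb10, their 3 constitutive counterparts Psmb5, Psmb6 and Psmb7, and the 3 PA28 genes Psme1, Psme2 and Psme3. They were taken by gene symbol as 9 of the 35521 genes to which reads of the 4T1 transcriptome were summed. The rule names symbols only, although the set was proposed with earlier results of these data known. The RNA came from 4T1, a mouse mammary carcinoma line of BALB/c origin, in 3 groups of 4 libraries. Tu-Gr1+CD11b+-primed 4T1 cells (Tu-primed, 4T1_MDSC_T in the labels) had been cocultured for 48 hours with Gr1+ cells taken from tumors of 4T1 tumor-bearing mice. Spl-Gr1+CD11b+-primed 4T1 cells (Spl-primed, 4T1_MDSC_S) had been cocultured in the same way with Gr1+ cells from the spleen of such mice. Parental 4T1 cells (4T1) had no coculture. A Transwell membrane with 0.4 μm pores kept the Gr1+ cells, isolated on magnetic columns at day 21 after tumor cell injection, apart from the 4T1 cells, and the 4T1 cells were lysed in the well. Every group was the same cell line, and the labels do not state whether the 4 libraries of a group came from separate cultures or separate donor mice, so p-values measure the spread between these libraries, which may be technical.

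The proteasome is a barrel of stacked rings that cuts proteins into peptides, and its catalytic sites are in the β5, β1 and β2 subunits, encoded by Psmb5, Psmb6 and Psmb7. Interferon signaling, in particular by IFN-γ, is known to raise Psmb8, Psmb9 and Psmb10, whose products β5i, β1i and β2i take these places in newly built particles and give the immunoproteasome, which favors peptides that fit MHC class I. PA28α and PA28β, encoded by Psme1 and Psme2, form a ring that caps the barrel and are also interferon inducible, whereas PA28γ, encoded by Psme3, forms a nuclear cap of its own and is not regarded as interferon inducible.

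Psmb9 lies on chromosome 17 of the GRCm38 build (34181987 to 34187764, minus strand), head to head with Tap1 and 1 gene away from Psmb8 (34197721 to 34201454, plus strand). These genes and Tap2 fill 34335 bases of the MHC class II region. Psme1 (14, 55578123 to 55581529, plus strand) and Psme2 (14, 55587441 to 55591113, minus strand) lie 5911 bases apart on chromosome 14. Psmb10 is at 8, 105935735 to 105938444 (minus strand), Psmb5 at 14, 54614119 to 54618022 (minus strand), Psmb6 at 11, 70525367 to 70527858 (plus strand), Psmb7 at 2, 38588036 to 38644087 (minus strand) and Psme3 at 11, 101316213 to 101323537 (plus strand). The counts cover every annotated exon of a gene, untranslated and retained-intron parts included.

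Promoter windows from RefSeq (GRCm38.p6; 250 bases before to 50 after the annotated start) were held for 8 of the 9 genes, all but Psmb7, in 9 windows. They were searched on both strands for a GAS-type motif, a palindromic element known from interferon-inducible promoters, with the letters TTCNNNGAA, and for an IRF-type motif, which is GAAA, then 2 bases of any kind, then GAAA. Of 32851 windows of all genes, 8.3% held the first and 3.44% the second. Among the 8 genes with a window, 2 held a match to either, beside 11.3% of all windows. Psmb8 had a GAS-type match that begins at position -97 relative to the start, and Psme1 an IRF-type match on the minus strand that begins at position 10, inside the transcribed part. The windows of both, and that of Psmb9, which shares 275 bases with the window of Tap1, are shown for the 3 genes because all 3 were higher in Tu-primed 4T1 cells than in both other groups. The windows are chr17:34197945-34198244 on the plus strand (Psmb8), chr17:34187281-34187580 on the minus strand (Psmb9) and chr14:55578244-55578543 on the plus strand (Psme1). Capitals mark the motif matches, and the window of Psmb9 has none.
Psmb8: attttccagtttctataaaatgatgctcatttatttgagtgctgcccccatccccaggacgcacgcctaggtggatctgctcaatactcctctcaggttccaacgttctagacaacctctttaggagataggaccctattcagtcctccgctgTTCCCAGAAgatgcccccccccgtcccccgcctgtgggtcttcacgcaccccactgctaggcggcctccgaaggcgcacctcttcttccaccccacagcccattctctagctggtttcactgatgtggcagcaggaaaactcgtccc
Psmb9: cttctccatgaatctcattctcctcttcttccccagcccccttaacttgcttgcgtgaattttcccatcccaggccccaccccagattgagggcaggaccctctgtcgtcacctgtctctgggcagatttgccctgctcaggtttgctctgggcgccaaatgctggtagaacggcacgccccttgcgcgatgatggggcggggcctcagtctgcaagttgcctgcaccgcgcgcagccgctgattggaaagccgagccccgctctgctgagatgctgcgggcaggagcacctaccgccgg
Psme1: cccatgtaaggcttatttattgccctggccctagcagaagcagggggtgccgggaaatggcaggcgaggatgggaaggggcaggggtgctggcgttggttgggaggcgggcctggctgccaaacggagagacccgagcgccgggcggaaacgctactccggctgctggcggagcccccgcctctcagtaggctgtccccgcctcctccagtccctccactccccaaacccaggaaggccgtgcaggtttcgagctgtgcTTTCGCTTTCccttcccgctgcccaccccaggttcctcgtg

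The annotation of the transcripts counted here begins Psmb8, Psmb9 and Psme1 further upstream than these RefSeq starts, so a start used by the cells can lie outside the window. A match is a description of letters, and binding was not measured.

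Libraries held between 24566183 and 31637755 reads assigned to transcripts. Levels are given as CPM, the counts of a library scaled to a common total with TMM factors, which compare a gene between libraries but not genes with each other. A gene was called higher or lower at a Benjamini-Hochberg adjusted p under 0.05 in edgeR's quasi-likelihood test over 12555 genes. The TPM scale stands for limma on log2(TPM + 1) of the deposited TPM, which are scaled for transcript length to a common total; it was chosen after seeing the data. Epithelial markers such as Krt8 and Epcam were read in every library, and the 10 genes summed to 1950.0 to 2380.0 CPM in Tu-primed, 2430.0 to 2620.0 CPM in Spl-primed and 2710.0 to 4020.0 CPM in parental libraries. Of 25 myeloid markers, 16 had at most 10 counts in every library, among them Ptprc, Itgam and Ly6g, and 7 were at 0 throughout, including Mpo and Elane. The summed level of those 16 was 0.233 to 0.524 CPM in Tu-primed, 0.278 to 0.596 CPM in Spl-primed and 0.252 to 0.577 CPM in parental 4T1 cells. Of the other 9, S100a8 and Ltf were called higher in Tu-primed than in Spl-primed cells, from 1.49 to 2.83 CPM and from 1.86 to 4.16 CPM. Against parental cells 4 were higher (Itgb2, S100a8, Ltf, Il1b) and Lcp1 lower in Tu-primed cells, and Itgb2 was higher and Lcp1 lower in Spl-primed cells; Itgb2, the most abundant of these, averaged 230, 236 and 185 CPM in Tu-primed, Spl-primed and parental cells. Over all 25, the summed level was 271.0 to 292.0, 277.0 to 286.0 and 219.0 to 245.0 CPM in the same order of groups. The part of these markers in the results was not tested. Bulk RNA cannot tell a gene raised in all cells from more cells that express it.

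Between the primed groups, which differ in the tissue that gave the Gr1+ cells, 2 of the 3 immunoproteasome subunits and the α and β genes of PA28 were higher in Tu-primed 4T1 cells. Psmb8 was 2.46-fold, Psmb9 2.24-fold, Psme2 1.41-fold and Psme1 1.3-fold higher. No constitutive subunit passed the test, nor did Psmb10 or Psme3. Thus 4 of 9 genes were called higher and 0 lower, whereas over all genes 4.66% were called higher and 2.97% lower. At an unadjusted p under 0.05, edgeR counted 5 higher and 1 lower (Psmb10 and Psme3 besides the 4). In those 4 genes every Tu-primed library exceeded every Spl-primed one, and in Psmb5 and Psme3 every Tu-primed library was below, where 8.51% of all genes separated upward and 8.51% downward. The median log2 fold change of the 9 genes was 0.34, beside -0.01 over all genes tested.

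Psmb8, which encodes β5i, measured 32.9, 27.6, 27.4 and 18.4 CPM in the 4 Tu-primed libraries. It measured 10.5, 9.19, 12.4 and 11.2 CPM in the Spl-primed and 10.9, 10.3, 13.0 and 15.4 CPM in the parental libraries. Every Tu-primed library lay above every other library, and replicate 4 was the lowest of the 4. The log2 fold change was 1.30 ± 0.16 (SE) against Spl-primed (edgeR adjusted p = 0.000199) and 1.10 ± 0.16 against parental cells (edgeR adjusted p = 6.58e-05). Spl-primed and parental libraries overlapped, with a difference of -0.20 on the log2 scale (95% interval -0.56 to 0.17; edgeR adjusted p = 0.356) that was 0.16 on the TPM scale, also not called. About as many reads of Psmb8 were assigned to retained-intron transcripts as to coding ones: the coding share was 47.9% ± 7.04 (SD, n = 4) in Tu-primed, 47.8% ± 5.75 in Spl-primed and 49.9% ± 6.63 in parental cells. Both classes were higher in Tu-primed cells, the coding transcripts at 10.7 to 14.7 CPM against 4.27 to 5.82 and 4.86 to 6.91 CPM, and the retained-intron transcripts at 7.63 to 18.2 CPM against 4.92 to 7.4 and 4.69 to 8.96 CPM. The coding transcripts of the Tu-primed libraries lay above all others, and the retained-intron transcripts overlapped with the parental range through Tu-primed replicate 4.

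Psmb9, which encodes β1i, was the least abundant of the 9 genes and rests on few reads. The Tu-primed libraries held 49, 51, 34 and 39 reads of it. The Spl-primed libraries held 18, 19, 19 and 24 and the parental libraries 15, 8, 19 and 15 reads. In CPM this was 1.74, 1.98, 1.19 and 1.35 against 0.565, 0.690, 0.690 and 0.835 and against 0.505, 0.329, 0.797 and 0.600. All 4 Tu-primed libraries were above the other 8. The log2 fold change was 1.17 ± 0.26 (SE) against Spl-primed (edgeR adjusted p = 0.0125; 0.82 on the TPM scale, limma adjusted p = 0.0517) and 1.48 ± 0.27 against parental cells (edgeR adjusted p = 0.000331), and without Tu-primed replicate 2 the first was 1.04 with an edgeR adjusted p of 0.0545. Spl-primed and parental cells differed by 0.32 (95% interval -0.30 to 0.93). Exons of Psmb9 share 212 bases with exons of Tap1 on the opposite strand. Those of Psmb8 share 498 bases with exons of an opposite-strand gene that was not among the genes counted. The library kit was a stranded one, and how the quantification used strand is not given in the sources used here. Reads in both overlaps are therefore uncertain.

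Psmb10, which encodes β2i, showed another pattern. Its Tu-primed libraries measured 16.8, 16.2, 13.5 and 12.8 CPM, the Spl-primed ones 11.1, 10.9, 14.1 and 10.9 CPM and the parental ones 15.0, 13.6, 17.6 and 18.0 CPM. Tu-primed libraries overlapped both other groups. The difference from Spl-primed cells was 0.34 ± 0.12 (SE) on the log2 scale and was not called (95% interval 0.08 to 0.59; edgeR adjusted p = 0.105), and without Spl-primed replicate 3 it was 0.45 and called (edgeR adjusted p = 0.0351). Against parental cells the difference was -0.12 (95% interval -0.37 to 0.13), and it was positive with library totals alone (0.07), protein-coding transcripts only (0.16) or TPM (0.20). Spl-primed cells were lower than parental cells by a log2 fold change of -0.45 ± 0.12 (edgeR adjusted p = 0.00641), a call not made with coding transcripts only (edgeR adjusted p = 0.0995) or on the TPM scale (-0.07, limma adjusted p = 0.662).

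**Figure D1:**
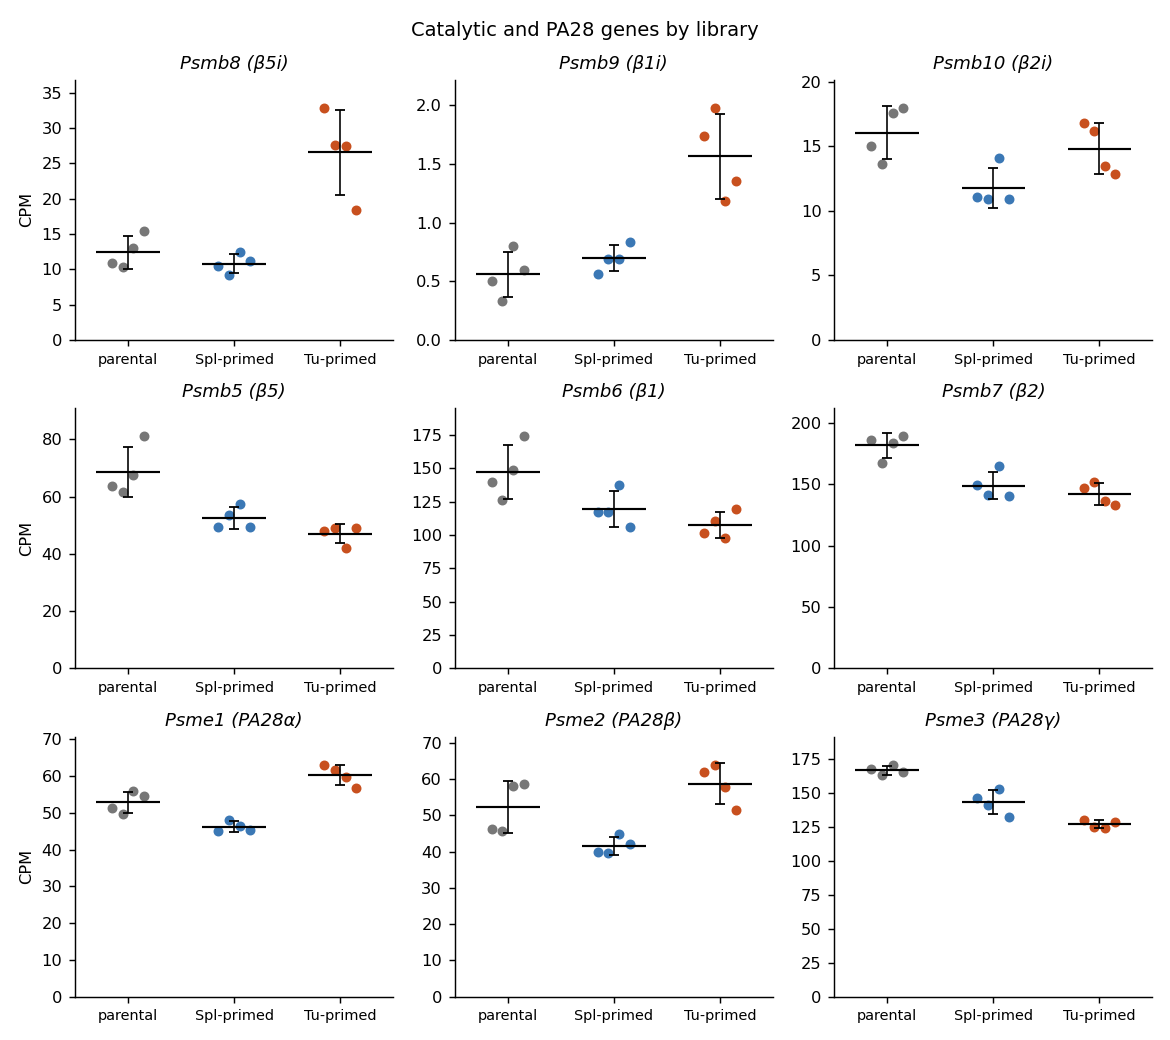
CPM of the 9 genes in parental, Spl-primed and Tu-primed 4T1 cells, each on a linear axis from 0; a point is a library and the bar with whiskers the mean ± SD of 4. Psmb8, Psmb9 and Psme1 stand highest in the Tu-primed libraries with no overlap, and Psmb5, Psmb6, Psmb7 and Psme3 stand highest in the parental libraries on average, an order in CPM that TPM does not share.

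The constitutive subunits were lower than in parental cells on the TMM scale, and on the TPM scale this direction was lost or turned, with log2 differences from -0.02 to 0.11 and no call. Psmb5 (β5) measured 47.9, 49.1, 42.1 and 49.0 CPM in Tu-primed, 49.4, 53.7, 57.3 and 49.4 CPM in Spl-primed and 63.7, 61.7, 67.6 and 81.1 CPM in parental libraries. The parental libraries were above both primed groups, and the Tu-primed libraries sat just below the Spl-primed ones. Psmb5 was lower than in parental cells by a log2 fold change of -0.54 ± 0.09 (SE) in Tu-primed (edgeR adjusted p = 0.000101) and of -0.39 ± 0.09 in Spl-primed cells (edgeR adjusted p = 0.00204). Between the primed groups it differed by -0.16 (95% interval -0.34 to 0.03; edgeR adjusted p = 0.298). Exons of Psmb5 share 109 bases with exons of a same-strand gene that was not among the genes counted. Strand cannot separate the reads in this overlap.

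Psmb6 (β1) measured 102, 111, 97.7 and 119 CPM in Tu-primed, 117, 117, 138 and 106 CPM in Spl-primed and 140, 127, 149 and 174 CPM in parental libraries. Its Tu-primed libraries lay below the parental ones, whereas 1 Spl-primed library reached into the parental range. The log2 fold change against parental cells was -0.46 ± 0.10 (edgeR adjusted p = 0.00141) for Tu-primed and -0.30 ± 0.10 (edgeR adjusted p = 0.0229) for Spl-primed cells. The second call was not made when Spl-primed replicate 1, 2 or 4 or parental replicate 4 was left out, with values between -0.29 and -0.21 and edgeR adjusted p between 0.0513 and 0.0767. Between the primed groups the difference was -0.16 (95% interval -0.37 to 0.06).

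Psmb7 (β2) measured 147, 152, 136 and 133 CPM in Tu-primed, 149, 142, 165 and 140 CPM in Spl-primed and 187, 167, 184 and 189 CPM in parental libraries. The parental libraries stood above both primed groups, which overlapped each other. The log2 fold change was -0.36 ± 0.07 (edgeR adjusted p = 0.000393) for Tu-primed and -0.29 ± 0.07 (edgeR adjusted p = 0.0027) for Spl-primed against parental cells, and -0.07 (95% interval -0.21 to 0.07) between the primed groups. Exons of Psmb7 share 405 bases with exons of Nek6 on the opposite strand, and reads in this overlap are likewise uncertain. Nek6 was called higher in Tu-primed cells, by 0.50 against Spl-primed and 0.46 against parental cells on the log2 scale. Its part in the values of Psmb7 was not tested.

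Among the PA28 genes, Psme1 (PA28α) measured 63.2, 61.8, 59.7 and 56.9 CPM in Tu-primed, 45.2, 48.2, 46.5 and 45.4 CPM in Spl-primed and 51.2, 49.8, 55.9 and 54.5 CPM in parental libraries. The 3 groups did not overlap in CPM, with parental cells in the middle. The log2 fold change between the primed groups was 0.38 ± 0.05 (edgeR adjusted p = 0.000378). Against parental cells it was 0.19 ± 0.05 for Tu-primed (edgeR adjusted p = 0.00609) and -0.19 ± 0.05 for Spl-primed cells (edgeR adjusted p = 0.00825). The second turned with the scaling: it was -0.02 with library totals (edgeR adjusted p = 0.784) and 0.23 on the TPM scale (limma adjusted p = 0.0341).

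Psme2 (PA28β) measured 61.8, 64.0, 57.8 and 51.3 CPM in Tu-primed, 39.9, 39.6, 44.8 and 42.0 CPM in Spl-primed and 46.3, 45.6, 58.2 and 58.7 CPM in parental libraries. The parental libraries fell into a lower and a higher pair, the higher of which overlapped the Tu-primed range. Psme2 was higher in Tu-primed than in Spl-primed cells by 0.50 ± 0.09 on the log2 scale (edgeR adjusted p = 0.00398), a call not made on the authors' table (limma adjusted p = 0.149) or on the TPM scale (0.0697). It differed from parental cells by 0.17 (95% interval -0.03 to 0.37; edgeR adjusted p = 0.126) in Tu-primed and by -0.33 ± 0.09 (edgeR adjusted p = 0.00985) in Spl-primed cells, and without Tu-primed replicate 4 the first was 0.23 and called (edgeR adjusted p = 0.0489). With library totals the first was 0.36 and called (edgeR adjusted p = 0.0021). The second was not called with coding transcripts only (edgeR adjusted p = 0.0872) or on the authors' table (limma adjusted p = 0.0687), and was 0.10 on the TPM scale. Psme2b, a near copy of Psme2 on chromosome 11, was assigned 0 reads in every library, so the division of reads between the copies is uncertain.

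Psme3 (PA28γ) measured 130, 125, 124 and 128 CPM in Tu-primed, 146, 141, 153 and 132 CPM in Spl-primed and 167, 163, 171 and 165 CPM in parental libraries. The groups did not overlap and stood in the order of the constitutive subunits' means. The log2 fold change against parental cells was -0.39 ± 0.05 (edgeR adjusted p = 2.27e-05) for Tu-primed and -0.22 ± 0.05 (edgeR adjusted p = 0.00301) for Spl-primed cells, and on the TPM scale it was -0.02 and 0.04, neither called. Between the primed groups it was -0.17 ± 0.05 and missed the threshold in edgeR (adjusted p = 0.0551), whereas DESeq2 called it (adjusted p = 0.0148).

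**Figure D2:**
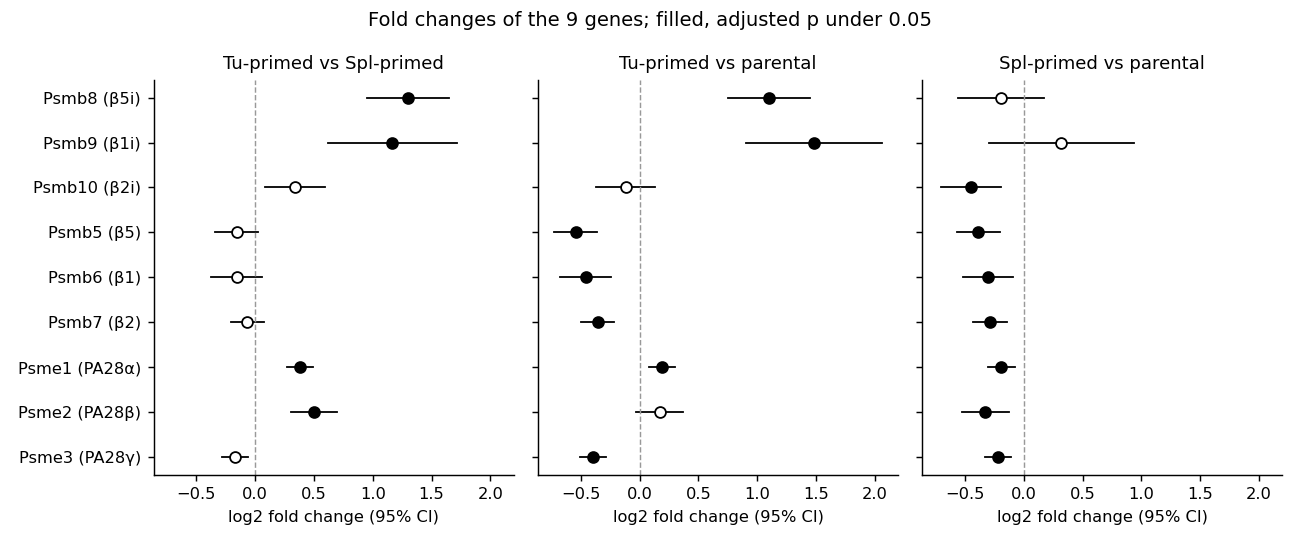
Log2 fold change of each gene with its 95% interval in the 3 comparisons, from edgeR; filled points passed an adjusted p of 0.05. Psmb8 and Psmb9 lie right of 1 in both comparisons with Tu-primed cells, and the constitutive subunits lie left of 0 in both comparisons with parental cells, as scaled by TMM; on the TPM scale those differences lay between -0.02 and 0.11.

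Counted over the 9 genes, Tu-primed against parental cells gave 3 higher (Psmb8, Psmb9, Psme1) and 4 lower (Psmb5, Psmb6, Psmb7, Psme3), beside 31.2% of all genes called higher and 28.0% called lower. The libraries of the same 7 genes did not overlap, beside 28.6% of all genes separated upward and 26.9% downward. Spl-primed against parental cells gave 0 higher and 7 lower, all but Psmb8 and Psmb9, beside 25.7% higher and 22.5% lower over all genes. For 5 of these 7 the libraries did not overlap (18.3% of all genes downward), and none of the 9 separated upward (21.3%). At an unadjusted p under 0.05 there was likewise no gene higher in edgeR, and DESeq2 also gave 0 higher. Both comparisons use the same 4 parental libraries. The sizes against parental cells depend on the scaling: with library totals alone the median of all genes shifted by 0.19 and 0.17 on the log2 scale, and 1 of the 9 genes, Psmb5, was then called lower in Spl-primed cells, in place of 7. On the TPM scale the median of all genes shifted by 0.44 and 0.37, and directions turned: 0 of the 9 genes were called lower in either comparison, 4 were higher in Tu-primed (Psmb8, Psmb9, Psme1, Psme2) and 1 in Spl-primed cells (Psme1). Over all genes that scale called 8170 higher and 301 lower in Tu-primed and 7301 higher and 102 lower in Spl-primed cells. A lower value against parental cells is thus lower relative to the other genes as TMM aligns them, and not in every scaling. Over all genes library totals called 5965 higher and 1760 lower in Tu-primed cells, against 3919 and 3515 with TMM, and 5374 higher and 1061 lower in Spl-primed cells, against 3225 and 2828. Mitochondrial genes took 4.26% to 6.75% of reads in parental libraries, 2.53% to 3.17% in Spl-primed and 2.1% to 2.54% in Tu-primed libraries. Of the TPM they took 18.0% to 24.8%, 10.2% to 12.3% and 8.48% to 10.9%, and their part in these differences was not tested.

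To set an immuno subunit beside the constitutive subunit it replaces, levels per transcript length are needed, and the deposited TPM values (transcript levels scaled for length to a common total) were summed by gene. In parental cells the order of mean TPM was Psmb6 (268), Psmb7 (198), Psme3 (138), Psme2 (136), Psmb5 (131), Psme1 (80.1), Psmb10 (34.2), Psmb8 (15.8) and Psmb9 (0.525), and of these neighbors only Psme3 and Psme2 overlapped. In Spl-primed cells Psmb10 (32.7) was likewise above Psmb8 (17.7), with no overlap. In Tu-primed cells Psmb8 (44.7) stood above Psmb10 (39.3) in the mean, although their ranges, 30.7 to 54.2 and 34.6 to 45.0, overlapped. These TPM include retained-intron and other noncoding transcripts. In Spl-primed cells Psmb10 was 13.2% of its sum with Psmb7, and 4.21% with coding transcripts only. Psmb8 was 11.4% and 7.12% of its sum with Psmb5, so the order of Psmb8 and Psmb10 may not hold for coding RNA. Each constitutive subunit exceeded its immuno counterpart in all 3 groups.

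Psmb8 made up 29.2%, 26.3%, 28.9% and 18.0% of the summed TPM of Psmb8 and Psmb5 in the Tu-primed libraries. It made up 11.8%, 9.55%, 11.1% and 13.0% in the Spl-primed and 10.3%, 10.1%, 11.6% and 10.9% in the parental libraries. Every Tu-primed library was above the other 8, with means of 25.6% ± 5.25 (SD, n = 4), 11.4% ± 1.44 and 10.7% ± 0.708. The ratio of Psmb8 to Psmb5 was 2.66-fold that of Spl-primed cells and 2.82-fold that of parental cells. With coding transcripts only, the shares were 16.6% ± 2.7, 7.12% ± 1.47 and 6.8% ± 0.928, lower throughout and in the same order.

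Psmb9 made up at most 1.36% of the summed TPM of Psmb9 and Psmb6 in any library. The shares were 1.36%, 0.957%, 1.11% and 0.519% in Tu-primed, 0.236%, 0.325%, 0.224% and 0.763% in Spl-primed and 0.220%, 0.128%, 0.261% and 0.169% in parental libraries. Tu-primed replicate 4 fell below Spl-primed replicate 4, so these primed groups overlapped, unlike in CPM. Psmb10 made up 15.6% ± 1.22 of Psmb10 and Psmb7 in Tu-primed, 13.2% ± 1.48 in Spl-primed and 14.7% ± 1.04 in parental cells, with overlap between all groups. With coding transcripts only, these were 5.9% ± 0.345, 4.21% ± 0.538 and 4.32% ± 0.449, and the Tu-primed libraries (5.4% to 6.14%) then lay above the others (3.44% to 4.93%). The shares are descriptions with no test, and they compare RNA, not subunits in particles.

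**Figure D3:**
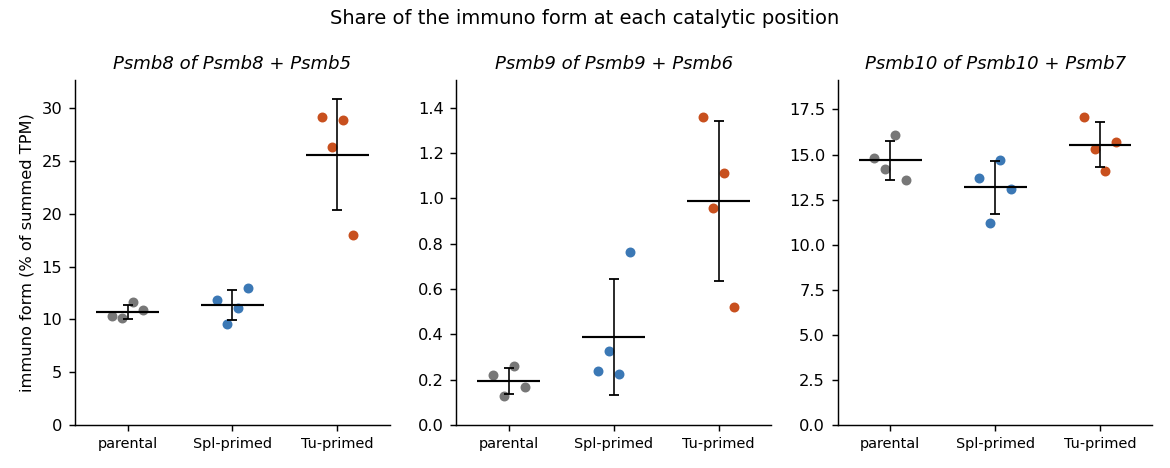
Share of the immuno form in the summed TPM of each catalytic pair, in percent on axes that start at 0 and differ in scale; a point is a library and the bar with whiskers the mean ± SD of 4. The share of Psmb8 in Tu-primed libraries (18.0% to 29.2%) lies above all others, that of Psmb9 is at most 1.36% throughout, and that of Psmb10 overlaps between groups.

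No other proteasome gene was called between the primed groups. None of the 11 other subunits of the core particle passed the test between Tu-primed and Spl-primed cells, with log2 fold changes from -0.17 to 0.04 and a median of -0.03. None of the 19 subunits of the 19S regulatory particle, which binds ubiquitinated proteins and unfolds them, was called either (-0.14 to 0.06, median -0.06). The same held for 16 tested assembly factors and other regulators (-0.29 to 0.14, median -0.06), among them Pomp, the chaperone that matures the core particle (-0.12), Psme4, which encodes the PA200 cap (0.01), and Nfe2l1, the factor that raises proteasome genes when proteasomes fail (0.06). DESeq2 and limma-voom also called 0 genes of these 3 lists. At an unadjusted p under 0.05, edgeR counted 1 core subunit (Psmb2, -0.15), 0 of the 19S subunits, and 4 lower and 1 higher of the assembly factors and regulators. Against parental cells on the TMM scale, 7 of 11 core subunits were lower in Tu-primed cells and 6 in Spl-primed cells, with medians of -0.30 and -0.21 and none higher, beside 28.0% and 22.5% of all genes called lower. Psmb3 fell by 0.47 and Psmb1 by 0.40 on the log2 scale in Tu-primed cells, and Psmb2 was not called (-0.15). Of the 19S subunits 16 and 15 of 19 were lower (medians -0.40 and -0.31), led by Psmd1 (-0.55 and -0.52), and of the assembly factors and regulators 8 and 7 of 16, with Pomp at -0.43 and -0.32 and Psmf1, which encodes the inhibitor PI31, at -0.33 and -0.28. With library totals alone the core subunits called lower were 2 and 2. On the TPM scale none of these 3 lists had a gene called lower, and 7 and 6 core subunits, 5 and 8 of the 19S subunits and 9 and 8 assembly factors and regulators were called higher.

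Of 11 antigen processing genes, which take the peptides onward, 7 were called higher and 0 lower in Tu-primed than in Spl-primed cells, with a median of 0.28, beside 4.66% and 2.97% of all genes. The count was 4 without Tu-primed replicate 1 or 2 or Spl-primed replicate 1, 2 or 4, 1 on the authors' table and 2 on the TPM scale. Tap1, which encodes a subunit of the peptide transporter, rose by 1.39 ± 0.21 (SE) on the log2 scale (edgeR adjusted p = 0.000874). It measured 12.4, 10.8, 8.07 and 5.97 CPM against 2.98, 4.65, 2.94 and 3.69 CPM. Tapbp, which encodes tapasin, rose by 0.53 and Tap2 by 0.48, whereas H2-K1 (0.28) and H2-D1 (0.24), the classical class I heavy chains, had the smallest changes of those called. Tapbpl (0.23), Pdia3 (0.08), Canx (0.02) and Calr (-0.04) were not called. Against parental cells 8 were higher and 1, the chaperone gene Calr (-0.29), lower in Tu-primed cells, beside 31.2% and 28.0% of all genes. In Spl-primed cells 1 was higher, Tap2 (0.45), and 1 lower, Calr (-0.26), beside 25.7% and 22.5%. On the TPM scale 11 and 6 were called higher and none lower.

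Of 14 tested genes of interferon signaling (receptors, kinases, transcription factors and the feedback inhibitor Socs1), 7 were higher in Tu-primed than in Spl-primed cells and 0 lower, with a median of 0.29, beside the same 4.66% and 2.97%. Irf7 (4.33) and Irf9 (2.70), factors of the type I interferon response, had the largest log2 fold changes, and Irf1 (0.32) and Ifnar2 (0.30) the smallest of those called. As for Psmb8, replicate 4 was the lowest Tu-primed library for Irf7 (13.0 CPM beside 36.7 to 67.0 CPM) and for Tap1. Nlrc5, the transactivator of class I genes, was 0.77 higher between the primed groups and also 1.41 higher in Spl-primed than in parental cells, a comparison in which Psmb8 and Psmb9 were not called. Against parental cells 10 were higher and 1, Jak1, lower in Tu-primed cells, and 7 were higher and 1, again Jak1, lower in Spl-primed cells, beside 31.2% and 28.0% of all genes in the first and 25.7% and 22.5% in the second. On the TPM scale 12 and 9 were called higher and none lower. Ifng had 0 counts in every library and Ifnb1 at most 1, where a count of 0 allows up to 3 counts, or 0.122 CPM in the shallowest library.

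**Figure D4:**
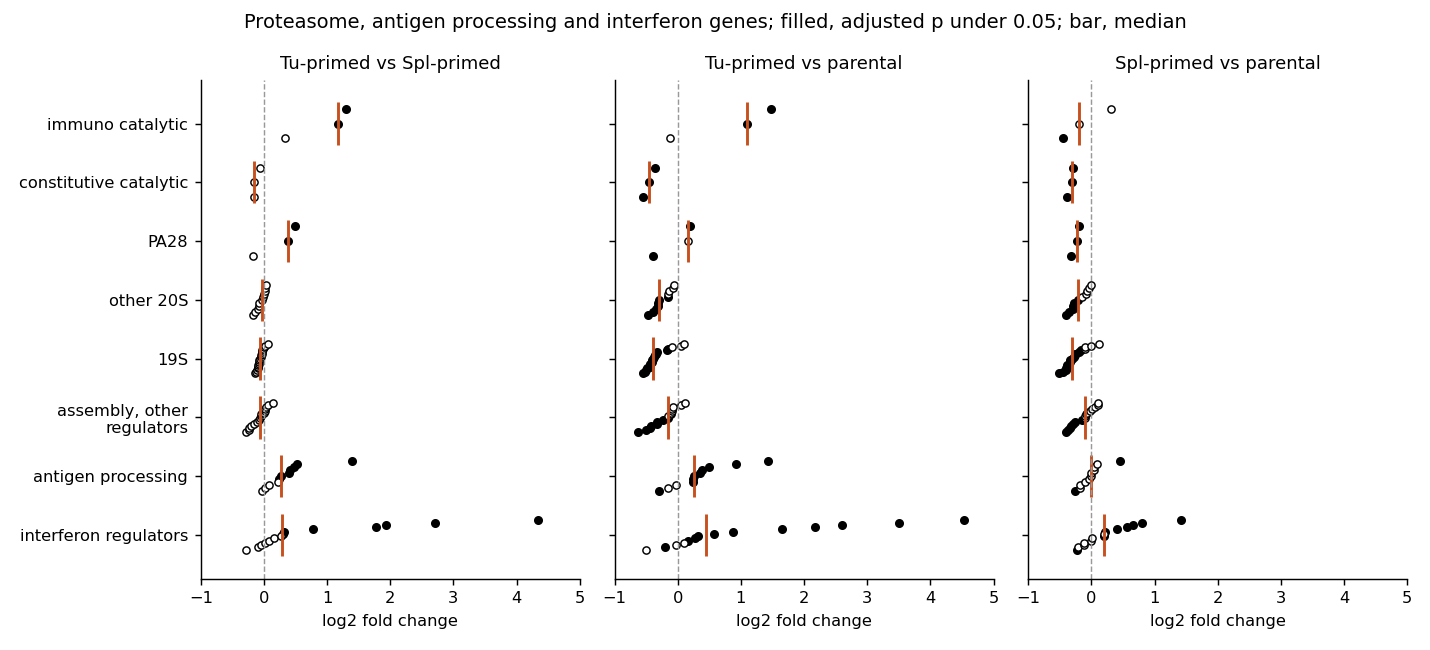
Log2 fold change of the tested genes of each list in the 3 comparisons, from edgeR; a point is a gene, filled where the adjusted p was under 0.05, and the bar is the list's median. Between the primed groups the core, 19S and assembly genes lie between -0.29 and 0.14 with no filled point, while Psmb8, Psmb9 and antigen processing and interferon genes reach to the right.

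The genes whose log2 CPM was most like that of Psmb8 over the 12 libraries were Irgm1 (Pearson r = 0.974), Apol9b (0.972) and Slfn2 (0.971). For Psmb9 they were Glipr2 (0.942), E130311K13Rik (0.936) and Gbp6 (0.934), and for Psmb10 they were Cd63 (0.975), Tigit (0.967) and Tbrg1 (0.960). The constitutive subunits were most like other genes, Psmb5 like Eif3k (0.989), Psmb6 like Lsm4 (0.988) and Psmb7 like Dnajc15 (0.985). Among the 9 genes themselves r was 0.857 between Psmb8 and Psmb9, 0.931 between Psme1 and Psme2, 0.956 between Psmb5 and Psmb6, and -0.445 between Psmb8 and Psmb5. These are descriptions over 12 libraries that share the group differences. As deviations from the group means, r was 0.496 between Psmb8 and Psmb9, 0.81 between Psme1 and Psme2, and 0.892 between Psmb5 and Psmb6. It was 0.378 for Psmb8 and Psmb5 and 0.821 for Psmb8 and Psmb10. With the first gene named for each, it was 0.818 for Psmb8, 0.661 for Psmb9 and 0.942 for Psmb10. For Psmb5, Psmb6 and Psmb7 it was 0.959, 0.971 and 0.953.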

How the data were processed

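RNA-Seq of 12 libraries, 4 for each of the 3 groups, was analysed. Per the labels, the authors trimmed reads with Trimmomatic 0.39 and quantified transcripts with Salmon 1.4.0, and the builds GRCm38 and mm10 are named. The authors deposited for each library an estimated count per Ensembl transcript, not normalized, with TPM values scaled for transcript length and library size. A further deposited table holds a normalized signal per gene, which differed from DESeq2 size factors with length offsets by at most 0.000927 on the log2 scale over the 9 genes. Estimated counts were summed by gene with the GENCODE M21 annotation and rounded. Of 117081 transcripts 116021 were matched, and the others held 0.326% to 0.419% of reads. Library totals of 24566183 to 31637755 set the counting precision, and intervals cover the spread of 4 libraries. Replicate libraries differed by more than sampling noise (chi-square per degree of freedom 3.46 to 62.2). In Spl-primed cells pairs with replicate 3 gave 31.5 to 39.2 and the other pairs 3.46 to 7.58. Parental replicates 1 and 2 gave 5.88, replicates 3 and 4 gave 17.1, and pairs across these gave 21.5 to 62.2. Tu-primed pairs gave 4.35 to 17.6.

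The main test was edgeR's quasi-likelihood test (edgeR 4.0.16, R 4.3.3; filterByExpr, 12555 genes; TMM factors 0.88 to 1.053; 1 fit of 12 libraries; threshold 0.05). Each standard error came from the log2 fold change and the F statistic, and log2 CPM took a prior count of 2. Fits were also tested on simulated data. With 198 genes changed 2-fold up or down, edgeR recovered 178 and called 12 unchanged genes. DESeq2 recovered 185 and called 33 unchanged genes, and limma-voom recovered 179 and called 12. With no gene changed, edgeR and limma-voom called 0 and DESeq2 called 2. Alternatives were RLE, upper-quartile and library-total scaling, DESeq2 1.42.0, the same with length offsets, limma-voom (limma 3.58.1), limma on log2(authors' value + 1), a replicate block, only the 8 libraries compared, a minimum of 10 counts per library, no filter, protein-coding transcripts only, and leaving out each library. Limma on log2(TPM + 1) was added after seeing the data. Tables and plots used Python 3.11.15 (numpy 2.4.6, pandas 2.3.3, matplotlib 3.10.9).

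The 9 genes, the naming rule and the lists were chosen with earlier results of these data known. All 9 genes were described. From each list, the 2 largest and 2 smallest changes among called genes could be named, with a fixed set of proteasome, transporter and interferon genes, and the 3 most similar genes of each catalytic subunit. Markers were named as defining genes of their cell type. The result of 1 listed gene is not reported here.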

Additional observations from a re-analysis of the deposited data

Results flagged for a closer look

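Of 36 sets of 4 libraries examined, the 9 genes in CPM and the 3 shares in each group, 2 held a library far from the others by Dixon's test at the 95% level, and chance flags about 1 in 20. Psmb10 in Spl-primed 4T1 cells was 14.05 CPM in replicate 3 and 10.89 to 11.08 CPM in the other libraries. Psmb5 in Tu-primed 4T1 cells was 42.12 CPM in replicate 3 and 47.91 to 49.09 CPM in the others.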

How the results depend on the processing

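Fold changes of the 9 genes were recomputed under the alternatives, and most kept their direction and call: 314 of the values with 1 library left out and 316 of those under other settings. Psmb8 kept its call in both comparisons with Tu-primed cells throughout, with log2 fold changes of 1.18 to 1.44 against Spl-primed and 0.98 to 1.42 against parental cells. Reversed signs outside the TPM scale, none of them called, were Psmb10 in Tu-primed against parental cells with library totals (0.074) and coding transcripts only (0.16), and Psmb7 between the primed groups without Spl-primed replicate 3 (0.001, in a range of -0.102 to 0.001 with 1 library left out). The cause was not tested for these or the changes that follow.

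Limma on log2(TPM + 1), chosen after seeing the data, changed most. Against parental cells it turned Psmb10 (0.198), Psmb6 (0.013) and Psmb7 (0.105) in Tu-primed and Psmb8 (0.158), Psmb5 (0.081), Psmb6 (0.105), Psmb7 (0.112), Psme1 (0.231), Psme2 (0.097) and Psme3 (0.038) in Spl-primed cells. It called 8170 genes higher and 301 lower in Tu-primed and 7301 higher and 102 lower in Spl-primed cells, 0 of the 9 genes lower in both, 1 higher in the second, 5 and 8 of the 19S subunits, and 6 antigen processing genes in the second. In Tu-primed against Spl-primed cells it called 314 genes higher and 41 lower, 2 of the 9 genes higher (Psmb8, Psme1) and 2 antigen processing genes.

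Between the primed groups, limma on the authors' table called 321 genes higher and 102 lower, in place of 585 and 373, and 2 of the 9 genes higher (Psmb8, Psme1), 1 antigen processing gene and 4 interferon regulators. There Psmb9 had a limma adjusted p of 0.0922 and Psme2 of 0.149. DESeq2 and limma-voom each called 1 of the 9 genes lower, Psme3. With library totals, genes called against parental cells were 5965 higher and 1760 lower in Tu-primed and 5374 higher and 1061 lower in Spl-primed cells, 2 core subunits were called in each, and in Spl-primed cells 1 of the 9 genes was called lower and 4 assembly genes in either direction. For Spl-primed against parental cells, antigen processing calls were 4 with RLE or DESeq2, 6 with length offsets and 1 with coding transcripts only, in place of 2, and limma on the authors' table called 4 assembly genes and 4 interferon regulators. For Tu-primed against parental cells it called 7 interferon regulators.

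With 1 library left out, genes called between the primed groups ranged from 402 to 662 higher and 118 to 531 lower, the 9 genes gave 3 to 5 higher and 0 to 1 lower, antigen processing genes 4 to 7 and assembly genes 0 to 1. In Spl-primed against parental cells, assembly genes ranged from 4 to 9. The lowest count of lower genes, 118, was without Tu-primed replicate 3; it was 162 and 137 without Tu-primed replicates 1 and 2, and 241 and 209 without Spl-primed replicates 1 and 2. Antigen processing calls were 4 without Tu-primed replicate 1 or 2 or Spl-primed replicate 1, 2 or 4. The 1 assembly call came without Spl-primed replicate 4, and the 4 in the comparison with parental cells without Spl-primed replicate 2 or parental replicate 3. Psme3 was called lower between the primed groups without Spl-primed replicate 4 or parental replicate 4.

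From summed counts with no length scaling, the immuno shares in Tu-primed, Spl-primed and parental cells were 35.9%, 17.1% and 15.2% for Psmb8 and 9.41%, 7.28% and 8.09% for Psmb10, and for Psmb9 1.44% in the first and 0.373% in the last. From coding transcripts they were 16.6%, 7.12% and 6.8% for Psmb8 and 5.9%, 4.21% and 4.32% for Psmb10.

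Replicate numbers are shared by the groups, but deviations of same-numbered libraries correlated between -0.164 and 0.148, so the numbers were not taken as pairs. With a replicate block, 488 genes were higher and 256 lower between the primed groups, and the calls of the 9 genes did not change. Depth limits Psmb9 most, with 8 to 51 reads per library.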

Other observations

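The genes within 50 kb of the genes that were higher were looked at after their values had been seen. Around Psmb8 and Psmb9, 3 other genes were tested, and Tap1 and Tap2 were higher in Tu-primed than in Spl-primed cells, while H2-DMa was not called (0.01 on the log2 scale). Around Psme1 and Psme2, 7 other genes were tested, and 2 were called higher: Irf9 (2.70), whose gene ends 31908 bases from the start of Psme1, and Rnf31 (0.42), a subunit of the linear ubiquitin ligase. Ipo4 (-0.11), Tm9sf1 (0.02), Emc9 (0.22), Dcaf11 (0.22) and Pck2 (0.29) were not called. Over all genes 4.66% were called higher in this comparison. In Tu-primed against parental cells 2 of the 3 and 4 of the 7 were higher and 1 of each lower, beside 31.2% and 28.0% of all genes. In Spl-primed against parental cells 1 of the 3 and 3 of the 7 were higher and 1 of each lower, beside 25.7% and 22.5%.

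Retained-intron transcripts of Psmb6 held 7.36% to 8.67% of its reads in Tu-primed, 6.3% to 8.09% in Spl-primed and 4.36% to 5.03% in parental libraries. For Psme1 they held 3.35% to 4.46%, 2.33% to 6.04% and 0.266% to 1.1%. Parental libraries lay below both primed groups for these genes, a description made after the values had been seen and with no test.

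The tissue-restricted core subunits were at the limit of detection. Psma8, of the testis, had 0 counts in every library, and Psmb11, of the thymic cortex, had 0 to 10.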
